A study of Drosophila melanogaster with 2 samples.

Results

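LIM homeobox genes encode transcription factors that carry a homeodomain, which contacts DNA, and a pair of LIM domains, zinc-binding folds that contact other proteins. The 5 genes described here were apterous (ap), Lim1, Lim3, tailup (tup, also called islet) and Arrowhead (Awh), out of 13968 protein-coding genes annotated on the main chromosome arms of Drosophila melanogaster. They were listed by name, with earlier results of these data known. Every peak whose summit lay in 1 of these genes or within 10 kb of it was used. This gave 12 of the 3006 peaks on the main arms in the authors' conservative list, 14 of 3457 in the authors' other thresholded list, 13 of 1996 in the replicate 1 list and 9 of 2128 in the replicate 2 list.

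The peaks came from chromatin immunoprecipitation with sequencing (ChIP-seq) on whole embryos collected at 0 to 24 h of development. The flies were transgenic and made the CG10321 protein fused to enhanced green fluorescent protein (eGFP), and chromatin was precipitated with an antibody to GFP. There was 1 group of 2 biological replicates. Both replicates carried the fusion, no control library was analysed here, the depth of the libraries is unknown, and a whole embryo mixes all cell types and stages. The samples were not sorted by cell type, so fewer cells with a bound site and weaker binding in each cell cannot be told apart. With 1 group no contrast could be tested, and the values below are descriptions. The signal value is the authors' own for each peak, and none of the sources used here states its scale. It was compared only within a list, where a rank of 1 is the strongest peak.

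In insects, as in vertebrates, LIM homeodomain proteins are known for acting in combination to set the identity of neurons and of body regions. Their LIM domains bind the cofactor Chip, which joins them into larger complexes, while LIM-only proteins compete for that cofactor. In the fly, ap specifies the dorsal wing surface and a set of interneurons and peptide-producing neurons, Lim1 acts in distal antenna and leg and in neurons, tup and Lim3 together specify ventral motor neurons, and Awh is needed for cells that later form the abdominal epidermis and salivary gland imaginal ring.

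Strong peaks stood at the start sites of ap, Lim1 and tup, and no listed peak stood at those of Lim3 and Awh. The sequences under these peaks are shown first, because the GA-rich words in them recur at several of the strong summits. All are given 5' to 3' on the strand of the gene, from the RefSeq copy of the Release 6 assembly (dm6). Capitals mark every match to GAGAG or GCGAG on either strand, so CTCTC and CTCGC are also in capitals, and matches may overlap each other. GAGAG is the core of the word bound by GAGA factor, and GCGAG was picked after these windows had been read. For Lim1 the 250 bases before the outer start site are printed (X:8805805-8806054, minus strand), which hold the gene's strongest summit at X:8805960. A second Lim1 window, chosen after its signal was seen, runs to 50 bp on each side of the summit 974 bp upstream of the same start site (X:8806728-8806828, minus strand). The third Lim1 stretch is limited to 30 bases of the 3' UTR peak (X:8757952-8757981, minus strand) and was picked as the 30 bases near the summit with the most matches to GAGAG. The tup window runs to 50 bp on each side of its strongest summit (2L:18881505-18881605, minus strand). The Awh window, of the same length, is centred on the coding-exon summit of a much weaker peak (3L:3858021-3858121, plus strand).
Lim1 promoter: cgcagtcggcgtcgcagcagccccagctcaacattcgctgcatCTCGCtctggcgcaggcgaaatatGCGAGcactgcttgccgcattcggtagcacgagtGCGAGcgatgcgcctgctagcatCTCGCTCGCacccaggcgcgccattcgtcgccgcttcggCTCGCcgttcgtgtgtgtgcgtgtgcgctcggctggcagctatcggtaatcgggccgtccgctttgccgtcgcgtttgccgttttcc
Lim1 upstream: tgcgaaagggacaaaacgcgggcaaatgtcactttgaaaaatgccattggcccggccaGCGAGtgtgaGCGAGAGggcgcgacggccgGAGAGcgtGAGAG
Lim1 3' UTR: aGCGAGAGCGAGAGCGAGAGAGAGcggcgc
tup summit: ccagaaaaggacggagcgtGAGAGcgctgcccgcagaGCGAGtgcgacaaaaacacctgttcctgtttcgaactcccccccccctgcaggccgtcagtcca
Awh exon: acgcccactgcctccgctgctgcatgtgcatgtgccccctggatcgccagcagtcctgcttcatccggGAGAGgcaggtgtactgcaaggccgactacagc
The Lim1 promoter held 6 matches to GCGAG and 0 to GAGAG. The Lim1 upstream window held 2 and 3, the tup window 1 and 1, and the Awh window 0 and 1. The windows differ in length, and no count is given for the 3' UTR stretch, since its choice fixed it.

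The gene ap (FBgn0267978) covers 2R:5706202-5727525 on the minus strand and had a single peak in each list. In the conservative list the summit lay at 2R:5726978 with a signal of 3551.79, rank 11 of 3006. In the replicate 1 list the peak at this place had a signal of 1937.17 and rank 15, and in the replicate 2 list a signal of 1627.61 and rank 11. In each of these 3 lists the peak was thus among the 15 strongest. The gene has 3 annotated start sites, and the summit lay between the outer pair, 547 bp downstream of the outermost and 146 bp upstream of the next, in an intron of the longer transcript. Of the 6410 protein-coding genes with a peak in the gene or within 10 kb, 21 had a stronger one. Of the 1525 with a summit within 500 bp of a start site, 5 had a stronger one there. No further listed peak fell in the 10 kb on either side or in the rest of the gene.

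The gene Lim1 (FBgn0026411) covers X:8756539-8805804 on the minus strand, is 49.3 kb long, and had 7 peaks in the conservative list. Among all protein-coding genes, 39 had at least as many. The strongest Lim1 peak was at the outer start site, with its summit 156 bp upstream and a signal of 2239.3 at rank 60. In replicate 1 its signal was 1202.38 at rank 68, and in replicate 2 it was 1037.75 at rank 55. Peaks at 2 more summits stood further upstream, so that 3 summits fell within 1.658 kb of DNA before the gene. The peak 974 bp upstream had a signal of 920.948 (rank 184), with 471.141 in replicate 1 and 426.014 in replicate 2. The peak 1658 bp upstream was weaker, with 134.564 (rank 1051), and with 85.7 and 63.6 in the replicates. In the conservative list and in both replicates the signal was lower the farther the summit lay from the start site.

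The second strongest Lim1 peak lay at the other end of the gene. Its summit at X:8757931 was in the 3' UTR, 1392 bp before the annotated gene end and 47.9 kb downstream of the outer start site. The signal was 1192.49 (rank 145) in the conservative list, 688.645 (rank 139) in replicate 1 and 512.154 (rank 138) in replicate 2. As percentiles of each list, where 100 is the strongest, these ranks were 95.2, 93.1 and 93.6. The lists differ in length, and the conservative list drew on both replicates. Only 53 of the 3006 conservative peaks, 1.76%, had their summit in a 3' UTR. Within 50 bp of this summit stood 7 matches to GAGAG, more than at any other of the 12 summits, and 4 to GCGAG, as many as at the Lim1 promoter summit.

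The remaining 3 Lim1 peaks of the conservative list were intronic and weak. One lay 538 bp upstream of the inner start site at X:8785353, just outside the 500 bp used here to call a promoter summit, and had a signal of 83.3 with 44.0 in replicate 1. The others had signals of 98.3, at 9908 bp inside the gene, and 61.2, at 3957 bp downstream of the inner start site, with 63.3 and 42.1 in replicate 1. None of these 3 was in the thresholded list of replicate 2. The ranked list of replicate 2, which holds 94967 peaks of any score, had a peak at each of them, with signals of 35.9998, 39.0 and 31.2. Their scores were 537, 773 and 126, where the lowest score in the thresholded lists was 830. How often a ranked peak lay at other conservative peaks missing from replicate 2 was not counted. The other thresholded list added an eighth Lim1 peak, intronic, at X:8780966 with a signal of 57.5 and a score of 936. It was also in the replicate 1 list, with a signal of 49.4.

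The gene tup (FBgn0003896) covers 2L:18859507-18881261 on the minus strand and had 4 peaks in the conservative list. The strongest was 294 bp upstream of its single start site, with a signal of 1772.25 at rank 88. Its signal was 845.097 in replicate 1, at rank 103, and 877.776 in replicate 2, at rank 70. In both replicate lists it was the strongest peak at tup, by a wide margin over the next. Further peaks stood 1641 bp upstream, with a signal of 107.399, and 5860 bp upstream, with 121.657. In replicate 1 these had signals of 61.9 and 68.2. In replicate 2 the nearer of them had a signal of 42.6 and a score of 933, while the farther was in the ranked list alone, with a signal of 54.3 and a score of 471.

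The fourth tup peak, with a signal of 131.307, was assigned to tup by distance alone. Its summit lay 1712 bp beyond the 3' end of tup, in an intron of the neighbouring gene CG10602 and 116 bp upstream of a start site of that gene. Both replicate lists held it, with signals of 79.4 and 59.8. Its GC content within 50 bp of the summit was 27.7%, the lowest of the 12 peaks. The start site count and the base composition below therefore each include 1 peak that lies at another gene's promoter.

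**Figure D1:**
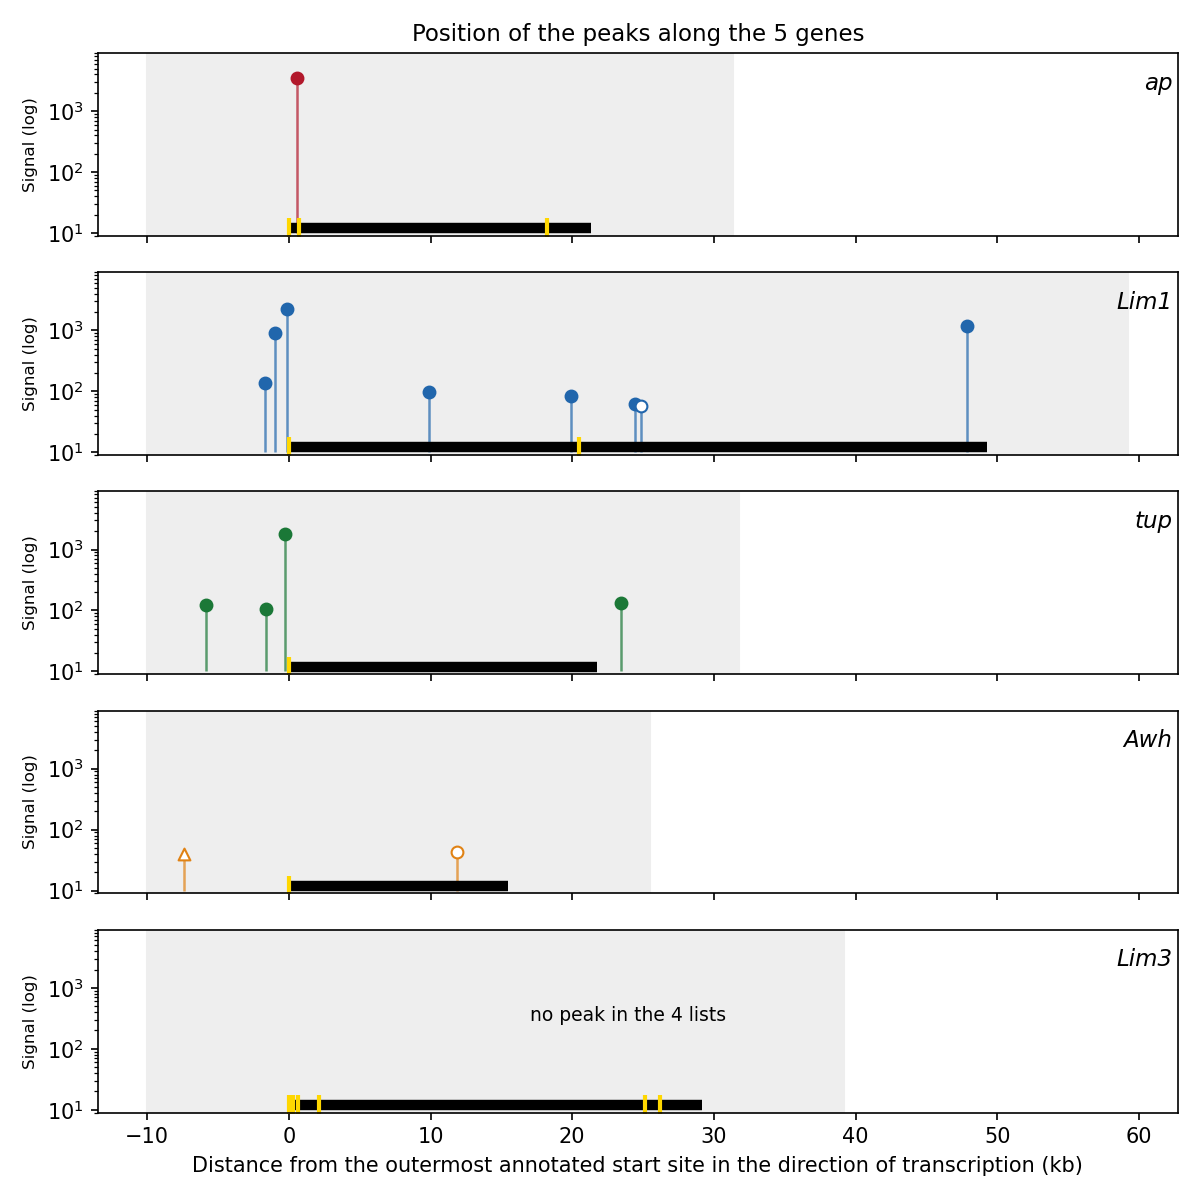
Position of each peak along the 5 genes in kb from the outermost annotated start site, in the direction of transcription, against the authors' signal value on a log axis. Filled circles are conservative peaks, open circles peaks of the other thresholded list that the conservative list lacks, the open triangle a peak of replicate 2 alone, black bars the gene, yellow ticks its start sites and grey the gene with 10 kb on each side; the strongest peaks of ap (3551.79), Lim1 (2239.3) and tup (1772.25) are within 1 kb of the outermost start site, and Lim1 has a further strong peak (1192.49) near its 3' end.

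The gene Awh (FBgn0013751), at 3L:3846206-3861692 on the plus strand, had no peak in the conservative list or in replicate 1. The other thresholded list placed a summit at 3L:3858071, in a coding exon and 11.9 kb downstream of the start site, with a signal of 43.6 at rank 3304 of 3457 and a score of 885. Replicate 2 alone had a peak at 3L:3838780, 7426 bp upstream of the start site, with a signal of 39.2 at rank 1961 of 2128 and a score of 913. That summit fell in coding sequence of the neighbouring gene enc. The 2 Awh summits were different places, and neither was shared by the replicate lists. In the ranked list that held the conservative peaks, the strongest Awh peak had a signal of 50.5 and a score of 578, and its summit lay 535 bp from a start site of the noncoding RNA gene lncRNA:CR45379.

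The gene Lim3 (FBgn0002023), at 2L:19079256-19108427 on the minus strand, has 6 annotated start sites and had no peak in any of the 4 thresholded lists. The ranked list that held the conservative peaks, with 141755 peaks in all, had 62 at Lim3, and none scored 830 or more. The strongest had a signal of 44.7 and a score of 102, with its summit 441 bp from a start site of the neighbouring gene CG10561, and the highest score was 426, for a peak with a signal of 39.9. In the ranked list that held the peaks of the other thresholded list, the peak near CG10561 had a score of 697, the highest at Lim3 there. In the ranked lists of replicates 1 and 2 the strongest Lim3 peaks had signals of 24.4 and 23.5, with scores of 285 and 26. The number of ranked peaks per kb at Lim3, 1.26, was within the range of 1.02 at ap to 1.37 at Lim1. It was not set beside the density over all genes. Lim3 lies 198 kb from tup on the same arm, and the motor neuron pair thus differed in the lists: tup had a promoter peak in all 4 and Lim3 in none. Without a contrast this difference has no test.

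The 5 strongest of the 12 peaks were set apart from the others by signal: they ran from 920.948 to 3551.79 and the other 7 from 61.2 to 134.564. The median of all 12 was 132.935, at percentile 64.6 of the list, where 100 is the strongest. The median over all conservative peaks was 100.005. All 5 strong peaks overlapped a peak in each replicate list by at least 1 bp, as did all 310 conservative peaks with a signal of at least 500. Of the 7 weaker peaks 3 were in both replicate lists (42.9%, Wilson 95% interval 15.8 to 74.95), against 1067 of 2696 weaker peaks overall (39.6%). All 12 overlapped a replicate 1 peak and 8 a replicate 2 peak, where 1764 and 1849 of all 3006 conservative peaks did. In both lists were 8 of the 12 (66.7%) and 1377 of all 3006 (45.8%). The 8 peaks in both lists had the same order of signal in each, and the largest summit gap from the conservative list was 34 bp. The 4 that were missing from the replicate 2 list were among the 5 of lowest signal in replicate 1.

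**Figure D2:**
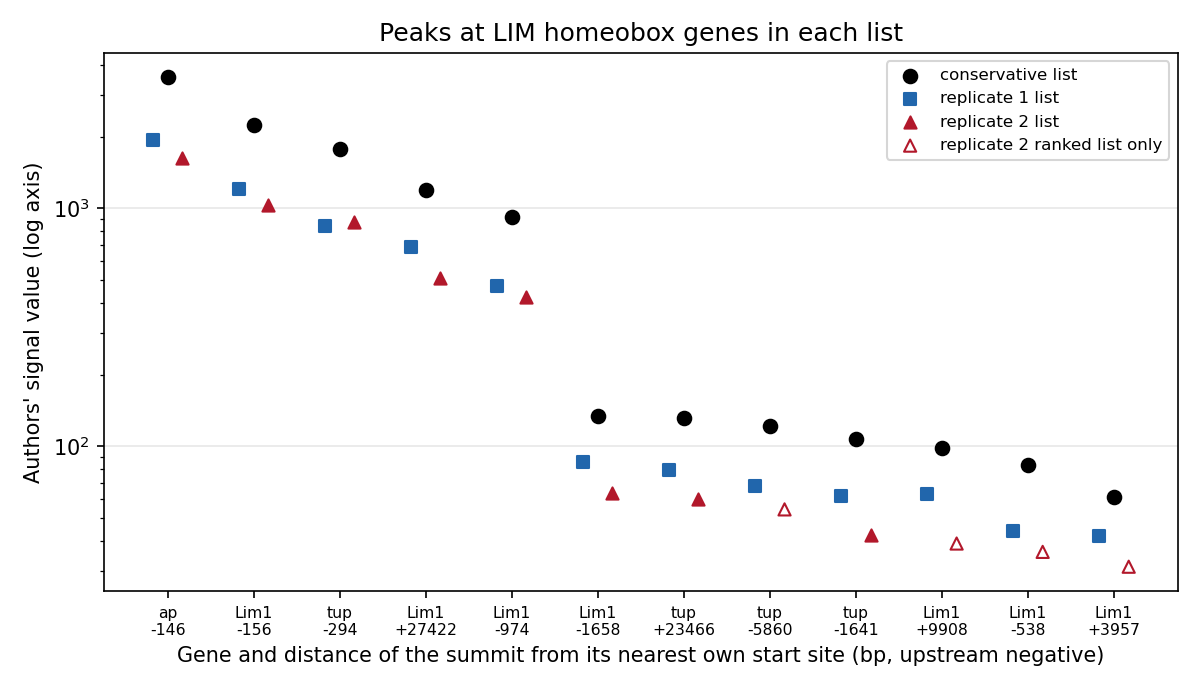
Authors' signal value (log axis) of the 12 conservative peaks at ap, Lim1 and tup in the conservative list, the replicate 1 list and the replicate 2 list, ordered by the conservative signal; open triangles are replicate 2 values from its ranked list alone. Values of different lists are not on 1 scale; the 5 strongest peaks are in all lists and 4 of the 7 weaker ones lack a thresholded replicate 2 peak.

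**Figure D3:**
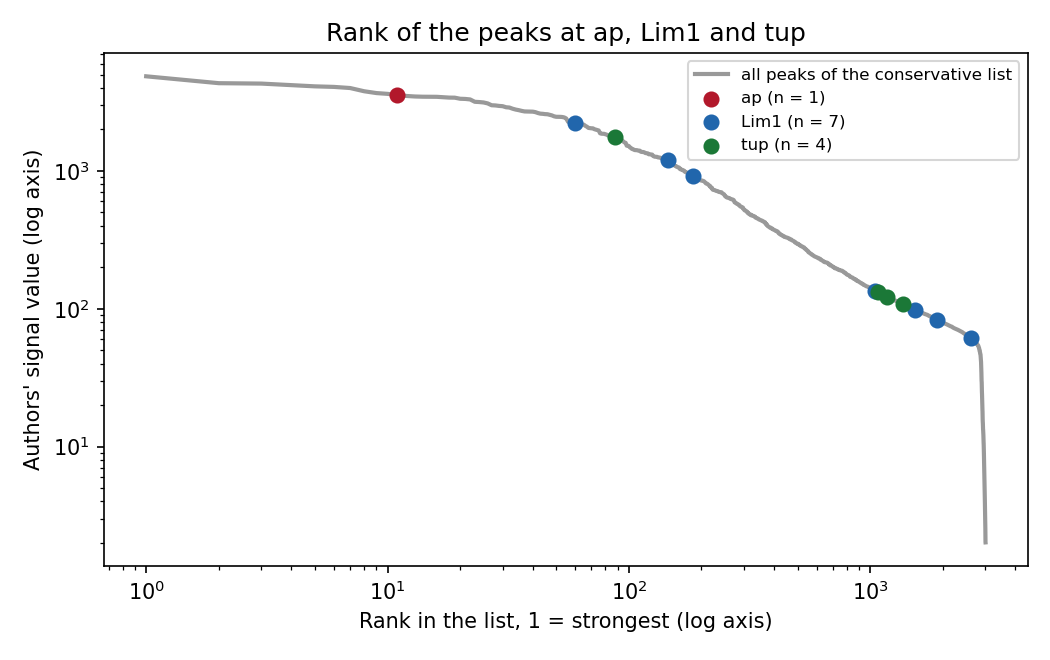
Authors' signal value against rank for all 3006 peaks of the conservative list, both on log axes, with the peaks at ap (1), Lim1 (7) and tup (4) marked. The strongest peak of each gene stands at rank 11, 60 and 88, while 7 peaks lie between ranks 1051 and 2625.

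The share of genes with any peak nearby was set beside that of all protein-coding genes and of long ones. In the conservative list 3 of the 5 had a summit in the gene or within 10 kb, where 45.9% of all protein-coding genes did. All 5 members are at least 10 kb long, and of the 1985 protein-coding genes of that length 60.7% had such a peak. In the other list 4 of 5 did, against 50.1% of all and 64% of the long genes. In replicate 1 it was 3 of 5, against 35.3% and 48.3%, and in replicate 2 it was 4 of 5, against 36.4% and 51.9%.

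Summits at start sites gave another picture. In the conservative list 3 of 5 members, ap, Lim1 and tup, had a summit within 500 bp of a start site of their own, where 10.9% of all protein-coding genes and 21.2% of those of at least 10 kb did. The same 3 members had one in each of the other lists, where the shares of all protein-coding genes were 12.3% in the other thresholded list, 7.9% in replicate 1 and 8.16% in replicate 2. With at least 4 peaks each, Lim1 and tup were 2 of 5 members, against 3.24% of all protein-coding genes and 10.3% of those of at least 10 kb. The cut of 4 is tup's own count, which includes the peak at the CG10602 promoter. In replicate 2 tup had 3 peaks, so that Lim1 alone, 1 of 5 members, reached 4, against 1.52% of all protein-coding genes. The median promoter signal of the 3 members was 2239.3, and that of all 1525 protein-coding genes with a promoter summit was 112.377. With 5 genes these shares are coarse, since a single gene moves them by 20 percentage points.

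Other homeobox classes were read in the same way, from the conservative list. All 15 NK-class genes had a peak nearby and 12 had a promoter summit, with a median strongest signal of 585.085. The replicate 1 and replicate 2 lists had a peak at 14 and 13 of these NK-class genes. Of the 10 TALE and sine oculis class genes, 7 had a peak and 5 a promoter summit, and the median strongest signal was 1758.31. Of the 5 POU genes, 4 had a peak and 2 a promoter summit, with a median strongest signal of 545.3. The LIM homeobox median over the 3 genes with a peak, 2239.3, was the highest of these 4 medians, and it rests on the fewest genes. Over all peaks of each class, not the strongest alone, the LIM homeobox median of 132.935 was instead the lowest. That median was 257.073 for the NK-class, 226.572 for the TALE and sine oculis class and 236.839 for the POU genes. No difference between the classes was tested.

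**Figure D4:**
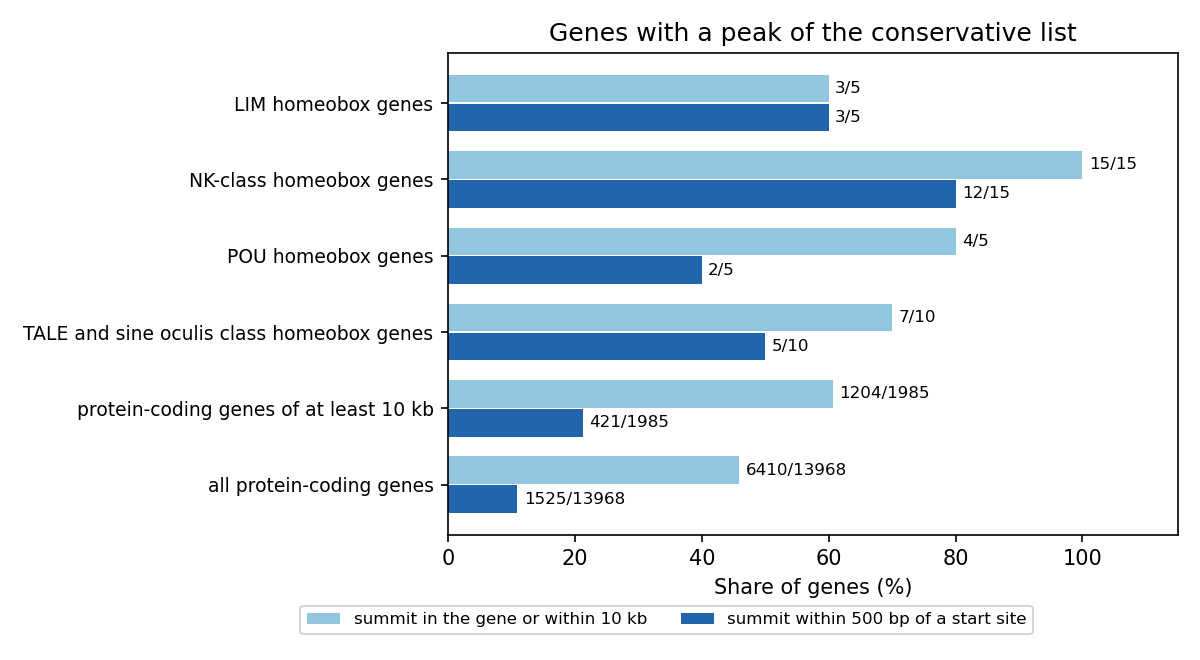
Share of genes (%) with a conservative summit in the gene or within 10 kb (light bars) and within 500 bp of a start site (dark bars), for homeobox classes and for protein-coding genes, with counts at the bar ends. The LIM homeobox genes stand at 3 of 5 for both, beside 6410 and 1525 of 13968 protein-coding genes.

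Genes that work with the LIM homeodomain factors were looked at from a list of names, in the conservative list. The other 2 LIM homeodomain genes, CG4328 and Lmx1a, had no peak within 10 kb. Of the cofactor and LIM-only genes, Chi, which encodes the Chip cofactor, and CG5708 had none. Bx, which encodes the LIM-only protein that competes for Chip, had 2 peaks, the stronger with a signal of 501.2. Ssdp, whose product binds Chip, had 1 peak with a signal of 83.0. None of these 4 had a promoter summit.

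Of 14 genes that act beside LIM homeodomain factors in motor neurons, wing or peptide neurons, 11 had a conservative peak nearby and 6 a promoter summit. The shares were 45.9% and 10.9% over all protein-coding genes and 60.7% and 21.2% over those of at least 10 kb, and the median length in the list was 19.5 kb. The motor neuron genes zfh1, vvl, eve, exex and HGTX had strongest signals of 1779.01, 1695.41, 681.493, 531.49 and 409.388. All but zfh1 of these 5 had a promoter summit. Among genes of peptide neurons, dimm had a strongest signal of 98.7, sqz 118.654 and dac 1184.34. The gene eya had no conservative peak, and 1 in the other thresholded list. Of the wing genes that act downstream of ap, Ser and fng had no peak. The gene caps had 1 with a signal of 56.4, and none in the other thresholded list or the replicate lists. The further members of the list, nub and ct, had strongest signals of 853.711 and 196.092. The list was put together with earlier results of these data known, and it shares HGTX, vvl and nub with the homeobox classes above.

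The protein-coding genes most like each member were found from the rank percentile of the strongest peak in the conservative, replicate 1 and replicate 2 lists, over the 3916 genes with a peak in all 3. Nearest to ap were CG7115, LanB1 and Rack1, each at a distance of 0.116 percentile points. Nearest to Lim1 were Ptx1 (0.126), ph-p (0.218) and D2hgdh (0.279). Nearest to tup were cnc (0.458), fzo (0.458) and SoxN (0.649). Genes that share a peak have the same values by construction.

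Most of the 12 peaks lay away from start sites. Summits within 500 bp of any start site numbered 4 of 12 (33.3%, Wilson 95% interval 13.8 to 60.9), all upstream of it, against 1418 of 3006 (47.2%). Of those 1418 summits 1016 were upstream. By annotation 6 of the 12 summits were intergenic (50%), 5 intronic (41.7%) and 1 in a 3' UTR (8.33%). The shares over all peaks were 33.3%, 47.4% and 1.76%. None of the 12 was in a 5' UTR, where 11.9% of all peaks were. In the replicate lists the share near a start site was 4 of 13 and 4 of 9, a mean of 37.6% ± 9.67 (SD, n = 2). The interval for the 12 peaks covers the share of all peaks.

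The summits were GC-rich. Over the 12 peaks the GC content within 50 bp of the summit had a median of 59.4%, with a lowest value of 27.7% and a highest of 65.3%. For all 3006 peaks the median was 44.6%, with quartiles of 32.7% and 53.5%. The 5 strong peaks lay between 57.4% and 65.3%, and all 310 conservative peaks with a signal of at least 500 had a median of 55.4%. Below a signal of 500 the 7 members had a median of 50.5% and the 2696 others and members together 43.6%. The replicate lists differed in this respect over all their peaks, with a mean of 46.0% in replicate 1 and 41.1% in replicate 2. The 4 member peaks missing from replicate 2 had 47.5%, 59.4%, 60.4% and 50.5%, and the part of base composition in their absence was not tested.

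**Figure D5:**
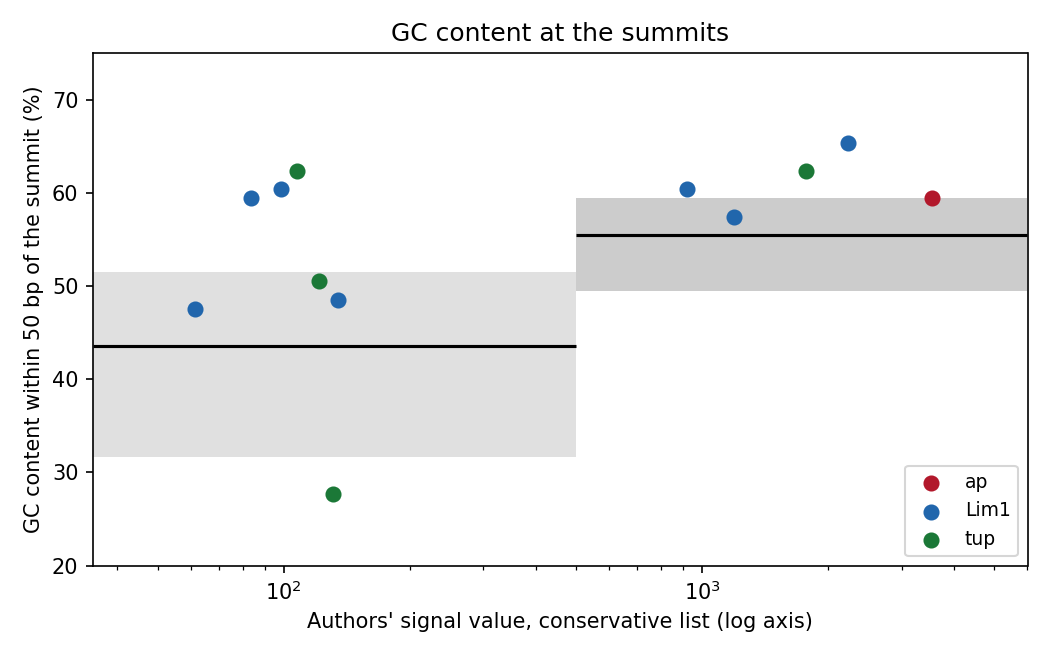
GC content (%) within 50 bp of the summit against the authors' signal value (log axis) for the 12 conservative peaks at ap, Lim1 and tup. Horizontal lines are the medians and grey bands the quartiles of all conservative peaks with a signal under 500 (median 43.6%) and of at least 500 (55.4%); 11 of the 12 peaks are above the median of their signal class, and the exception, at 27.7%, is the peak at CG10602.

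Short words were counted within 50 bp of the summit, on both strands, and in windows of the same length centred 500 bp to each side. GAGAG was present at 6 of 12 summits (50%) and at 923 of 3006 overall (30.7%), and in 5 of 24 flanking windows (20.8%) against 13.7% overall. The longer GAGAGAG, which contains GAGAG, was at 2 of 12 (16.7%) against 11.6%. GCGAG was at 7 of 12 (58.3%) against 31.3%, and in 2 of 24 flanks (8.33%) against 13.3%. GAGCGAG, which contains GCGAG, was at 6 of 12 (50%) against 14.2% of all peaks, and in 0 of 24 flanks against 2.01%. Both words with GCGAG were chosen after the windows printed above had been read, so their shares at the members describe what chose them.

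Over the whole list the shares of these words were higher at stronger summits. GAGCGAG was within 50 bp of 127 of the 310 conservative summits with a signal of at least 500 (41.0%) and of 301 of the 2696 weaker ones (11.2%). GCGAG was at 74.5% of the strong and 26.3% of the weak summits, and GAGAG at 52.6% and 28.2%. Of the 5 strong member peaks 4 held GAGCGAG, namely the 3' UTR, promoter and upstream peaks of Lim1 and the promoter peak of tup. These 4 are the strong peaks whose windows were read before the word was picked, so the count describes that choice. The strongest member peak, at ap, held neither GCGAG nor GAGCGAG within 50 bp, and had 2 matches to GAGAG and 2 to GCCAT. The Lim1 promoter summit held no GAGAG within 50 bp. The 5 matches in that peak lay 127 to 162 bp upstream of the summit, while 4 matches to GCGAG lay within 50 bp. The word GCCAT, the core of the sequence bound by the Polycomb recruiter Pho, was at 5 of 12 summits (41.7%) against 22.1% overall. TAATTA, a homeodomain word, CACACACA and TATCGATA, the core of the sequence bound by DREF, were at none of the 12, and at 5.66%, 3.89% and 0.898% of all summits. These absences depended on the window and the list. Within 100 bp CACACACA was at 3 of 12 (25%) against 9.58% of all summits, and TAATTA at 1 of 12 (8.33%) against 10.5%. In the replicate 2 list TAATTA was within 50 bp of 1 of 9 summits (11.1%) against 7.71%. In the 250 bp before all 19630 protein-coding start sites, GCGAG was present in 26.5%, GAGCGAG in 4.78%, GAGAG in 29.1% and GAGAGAG in 7.03%. GCCAT was there in 35.5%, TAATTA in 17.8%, CACACACA in 4.74% and TATCGATA in 6.91%. These windows are longer than those at the summits, so their shares cannot be set against the summit shares. The flanking windows of all peaks, of the summit length, held GCCAT in 17.7%, TAATTA in 6.70%, CACACACA in 3.39% and TATCGATA in 0.549%. The 250 bp before the outermost Lim3 start site held 0 matches to GCGAG, and those before the Awh start site held 1. Neither window held GAGAG, and no peak was listed at either. The Lim1 promoter window, which had a strong peak, held no GAGAG either. Because GCGAG was picked after windows with peaks had been read, its counts in windows without peaks describe that choice. The other Lim3 start sites were not read, and the link of these words to the lack of peaks was not tested.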

How the data were processed

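ChIP-seq peak lists of 2 biological replicates were analysed in dm6 coordinates, per the labels. Each replicate had a thresholded and a ranked list, and the series had 2 of each that drew on both replicates. In the deposited lists column 5 was a score (whole numbers up to 1000), column 7 a signal value per peak from the authors' processing, and column 10 the distance in bp from the peak start to its summit, by which the authors marked the summit. Which aligner, peak caller, versions and control were used is not given in the sources used here. Signal values served only for comparisons inside a list. Another 16 columns in the series' ranked lists, for single inputs that no name ties to a replicate, were left out. Without read counts the depth is unknown. Wilson 95% intervals cover counting error alone, over peaks. The authors chose the threshold, and a peak under it can still be in a ranked list. A ranked list was matched to a thresholded one by the peaks it held.

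Gene models came from Ensembl release 115, without transposable elements, and bases from RefSeq's Release 6 genome, and all peaks fell within its arm lengths. Peaks on unplaced sequences were left out, 6 of 3012 in the conservative list. Named are the 5 genes with all their peaks, the list members described by counts, and for each gene with a conservative peak the 3 genes of nearest rank percentile (Euclidean distance). The members, lists and words were chosen with earlier results of these data known. Replicate lists were compared by an overlap of at least 1 bp. Alternatives were other lists, each replicate alone, distances, overlaps, windows and words. No sequence of arm 2R is printed. The functions were tested on simulated data. Python 3.11.15, pandas 2.3.3, numpy 2.4.6, scipy 1.17.1 and matplotlib 3.10.9 were used.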

Additional observations from a re-analysis of the deposited data

How the results depend on the processing

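Of 45 recomputed values, 37 stayed within the spread used for comparison and 8 moved. For counts the allowance was a factor of 1.5, so a fall from 12 peaks to 8, or from 3 genes to 2, was not called a move. The number of peaks at the 5 genes was 8 to 14, with 9 and 13 from a single replicate, and the number found in both replicates was 8 throughout. ap, Lim1 and tup had a promoter summit under every list and distance tried except 200 bp, where tup at 294 bp dropped out and 2 remained. The share of peaks within 500 bp of a start site, 33.3%, was 30.8% to 44.4% with 1 replicate left out and 44.4% for peaks at or above the median signal. The share with GAGAGAG near the summit, 16.7%, was 33.3% within 100 bp and 50% for GAGAG. In the same order the shares of all peaks were 11.6%, 18.3% and 30.7%. With 1 replicate left out the GAGAGAG share was 11.1% to 23.1%, against 10.7% to 15.3% of all peaks. The rank percentile of the strongest peak, in single replicates, was 99.3 to 99.5 for ap, 96.6 to 97.5 for Lim1 and 94.9 to 96.8 for tup. The median rank percentile of the peaks, 64.6, was 55.8 in replicate 1 alone and 91.9 in replicate 2 alone, whose list lacked 4 of the weaker peaks. No paired analysis was possible because all samples form 1 group. Depth is unknown, so a peak that is not listed cannot be told from one below detection.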
